A study of Mus musculus with 4 samples.

Results

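The *Hox* cluster genes encode homeodomain transcription factors and lie in 4 clusters in the mouse genome. They were taken as every symbol of the expression table made of Hox, a cluster letter from a to d and a paralog number, which gave 39 genes of 45802 symbols. There were 11 in the *Hoxa* cluster, 10 in *Hoxb*, 9 in *Hoxc* and 9 in *Hoxd*. Of these, 34 had a value in all 4 libraries, 2 had a value in some libraries and 3 were blank throughout. The table held a further 5 symbols of *Hox* antisense genes, which are not counted here and were blank in every library. So were 99.2% of all 1123 antisense symbols of the table.

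Within a cluster, *Hox* genes stand in the order in which they are used along the body axis of the embryo: genes of low paralog number act towards the head, and genes of high paralog number act towards the tail and, in *Hoxa* and *Hoxd*, towards the tip of the limb. Paralogs are the genes of the same number in different clusters, which descend from 1 ancestral gene. Connective tissue and skeletal cells of the adult keep part of the *Hox* expression of the place in the body from which they come. In the hindlimb, *Hox10* genes are known for the upper segment of the leg, *Hox11* genes for the lower segment and *Hox13* genes for the foot.

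The libraries were made from periosteal cells, the cells of the sheath around the bone, of the femur and tibia of male *Pdgfra*-CreER mice crossed to the mT/mG reporter strain. All mice carried both transgenes and all were given tamoxifen (150 mg/kg daily, 5 days) beginning at 2 months of age. Hindlimbs were collected 14 days after tamoxifen, at 9 to 10 weeks of age. Cells released by collagenase were cultured for 1 passage with 15% serum and 10 ng/mL bFGF, and sorted as negative for CD31, CD45 and Ter119, markers of endothelial, hematopoietic and erythroid cells. Cells with membrane GFP, in which the *Pdgfra* promoter drove Cre when tamoxifen was given, were called PDGFRα reporter+, and cells with membrane tdTomato were called PDGFRα reporter-. The reporter thus marks past activity of the promoter and not the receptor on the day of the sort. Each population was pooled from 3 to 6 mice per the labels, and the study's methods give a higher number. The labels do not keep femur and tibia apart, so that the segment of the leg from which a cell came is not known. There were 2 libraries per population, and with 2 against 2 the smallest two-sided p of an exact permutation test is 0.333.

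The columns of the table are numbered 2 and 3 within each population, and the labels do not say what these numbers mark. The libraries are therefore named reporter+ library 2, reporter+ library 3, reporter- library 2 and reporter- library 3. The values were quantile-normalized log2 values, from -10.07 to 11.73 with a median of 1.48 in each library, and 15423 to 15605 genes had a value in a library. Depth was unknown. The lowest values fell with transcript length: among genes valued in only 1 or 2 libraries, the median lowest value was -4.89 for exonic lengths from 200 to 1000 bases and -8.16 for lengths from 8000 to 30000 bases. The values thus behaved as values per length, and levels were compared between genes on that log2 scale. All 12 mesenchymal markers had a mean of at least 0. *Tbx4*, a T-box factor of the hindlimb, stood at 1.69, 2.17, 1.498 and 1.17 in reporter+ libraries 2 and 3 and reporter- libraries 2 and 3, and *Tbx5*, its counterpart of the forelimb, stood at -4.61, -6.90, -5.32 and -5.39. The hindlimb label thus held at the level of these defining genes.

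The *Hoxa* and *Hoxc* clusters held the higher levels, and *Hoxb* the lower. The median over genes of the mean log2 value was 0.64 in *Hoxa* (11 genes), 1.09 in *Hoxc* (9 genes), -0.42 in *Hoxd* (6 genes) and -2.01 in *Hoxb* (8 genes). A mean of at least 0 was reached by 7 of 11 *Hoxa* genes, 7 of 9 *Hoxc* genes, 2 of 6 *Hoxd* genes and 0 of 8 *Hoxb* genes. On the linear scale, *Hoxb* made up between 3.02% and 4.82% of the summed *Hox* level of a library, against 34.6% to 46.9% for *Hoxa*, 31.4% to 46.2% for *Hoxc* and 13.04% to 18.6% for *Hoxd*. By paralog number, the genes 9 to 13 held 48.3% to 55.4% of the sum, the genes 4 to 8 held 40.0% to 47.0%, and the genes 1 to 3 held 4.57% to 5.21%.

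**Figure D1:**
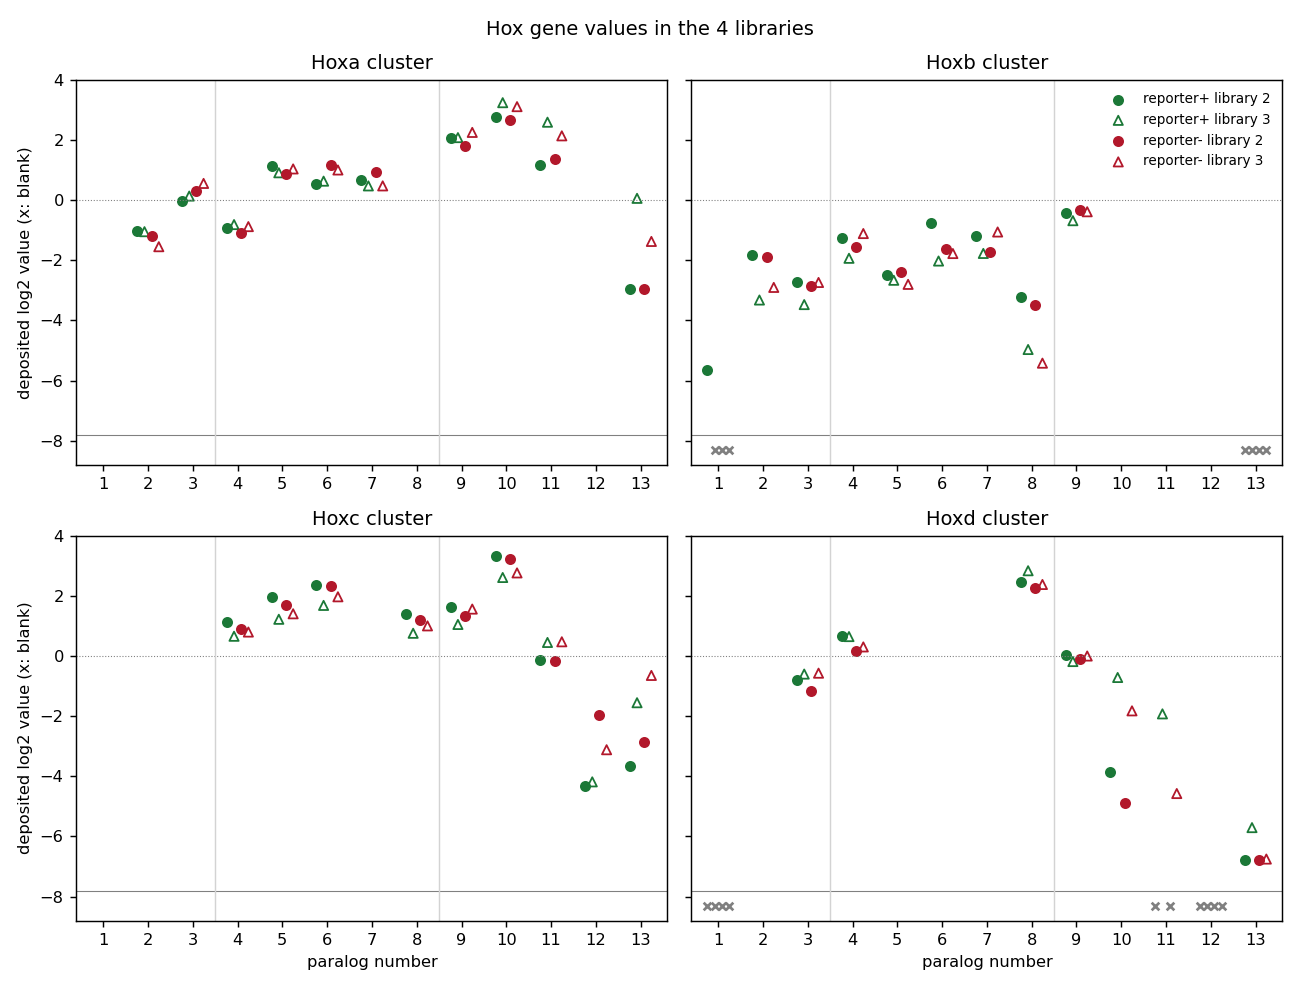
Deposited log2 value (vertical axis) of the *Hox* genes by paralog number (horizontal axis), 1 panel per cluster; green is reporter+, red is reporter-, filled circles are libraries numbered 2, open triangles are libraries numbered 3, and crosses below the line are blanks. *Hoxa10* and *Hoxc10* stand near 3 in all libraries, *Hoxb* genes stay below 0, and the libraries numbered 2 and 3 part at *Hoxa13*, *Hoxc13* and *Hoxd10*.

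The paralogs of number 10 held the peak. *Hoxc10*, known from hindlimb and lumbar identity, stood at 3.32 and 2.61 in the reporter+ libraries and at 3.23 and 2.76 in the reporter- libraries. *Hoxa10*, which patterns the upper leg, stood at 2.77 and 3.24 in reporter+ and at 2.68 and 3.11 in reporter- libraries. The order of these paralogs turned with the library number: *Hoxc10* was above *Hoxa10* in both libraries numbered 2 and below it in both numbered 3. Their means over the 4 libraries, 2.98 and 2.95, differed by less than the spread between libraries and lay at percentiles 72.9 and 72.5 of all genes with 4 values. *Hoxc10* shares 8.70% of its exonic bases with *Hoxc5* on the same strand. *Hoxd10* was far lower, at -3.85 and -0.71 in reporter+ and at -4.88 and -1.82 in reporter- libraries.

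*Hoxd8* followed in level, at 2.46 and 2.84 in reporter+ and at 2.27 and 2.38 in reporter- libraries, with a mean of 2.49. Next came *Hoxc6*, a central gene used at thoracic levels, at 2.38 and 1.68 in reporter+ and at 2.32 and 1.97 in reporter- libraries. *Hoxa9* stood at 2.08 in both reporter+ libraries and at 1.80 and 2.25 in reporter- libraries. The ranges of *Hoxc6* and *Hoxa9* overlapped, so that their order (means 2.09 and 2.05) was within the spread. Together with *Hoxa11*, these genes were the 6 highest, and they made up 56.0% to 60.6% of the summed linear *Hox* level in each library.

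*Hoxa11*, the *Hox11* gene of the lower leg in this cluster, stood at 1.17 and 2.59 in reporter+ and at 1.38 and 2.14 in reporter- libraries. Both libraries numbered 3 were above both numbered 2, whichever the population. Of its exonic bases, 34.98% lie opposite an exon of its antisense gene *Hoxa11os*, which was blank. *Hoxc11* stood at -0.15 and 0.45 in reporter+ and at -0.16 and 0.47 in reporter- libraries, again apart by number. *Hoxd11* was blank in both libraries numbered 2 and stood at -1.92 in reporter+ library 3 and -4.57 in reporter- library 3, with 10.8% of its exonic bases shared with the overlapping gene model *Gm28309* on the same strand. All 3 *Hox11* paralogs were thus higher in, or valued only in, the libraries numbered 3.

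The *Hox13* genes, which mark the foot and the end of the body axis in the embryo, were low and uneven. *Hoxa13* stood at -2.96 and 0.06 in reporter+ and at -2.96 and -1.37 in reporter- libraries. *Hoxc13*, also known from hair follicles and nails, stood at -3.65 and -1.55 in reporter+ and at -2.86 and -0.65 in reporter- libraries. *Hoxd13*, a gene of the digits, was the lowest valued member, at -6.78 and -5.71 in reporter+ and at -6.77 and -6.75 in reporter- libraries, near the level at which genes of its length begin to be blank. *Hoxb13*, known from the tail bud and prostate, was blank in all libraries. *Hoxc12* stood at -4.32 and -4.19 in reporter+ and at -1.97 and -3.12 in reporter- libraries, and *Hoxd12* was blank. A blank says only that the table gives no value.

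The *Hox9* paralogs were more even. *Hoxc9* stood at 1.62 and 1.05 in reporter+ and at 1.33 and 1.56 in reporter- libraries. *Hoxd9* stood at 0.02 and -0.18 in reporter+ and at -0.09 and 0.00 in reporter- libraries. *Hoxb9*, the highest *Hoxb* gene, stood at -0.44 and -0.68 in reporter+ and at -0.33 and -0.38 in reporter- libraries. In the order of mean level, *Hoxa9*, *Hoxc9*, *Hoxd9* and *Hoxb9* followed each other, and their ranges over the 4 libraries did not overlap.

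Within *Hoxb*, the genes next in level after *Hoxb9* were *Hoxb7*, at -1.20 and -1.77 in reporter+ and at -1.73 and -1.06 in reporter- libraries, and *Hoxb4*, a gene also used in blood progenitors, at -1.27 and -1.93 in reporter+ and at -1.56 and -1.11 in reporter- libraries. Their ranges overlapped. *Hoxb8* was the lowest *Hoxb* gene with 4 values, at -3.23 and -4.97 in reporter+ and at -3.48 and -5.42 in reporter- libraries. *Hoxb1*, an anterior gene of the hindbrain, had a value in reporter+ library 2 alone, at -5.65, and *Hoxd1* was blank. In *Hoxd*, *Hoxd4* stood at 0.66 and 0.65 in reporter+ and at 0.17 and 0.30 in reporter- libraries. Of the exonic bases of *Hoxd4*, 52.3% are shared on the same strand with *Hoxd3* or the gene model *Gm28230*. For *Hoxd3*, 62.3% are shared with *Hoxd4* or *Gm28230*, so that the split of reads between these genes is uncertain. The other anterior and central genes with 4 values had means between -2.95 (*Hoxb3*) and 1.57 (*Hoxc5*).

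The first comparison asked whether the *Hox* genes differed between PDGFRα reporter+ and reporter- cells. No *Hox* gene did at an adjusted p under 0.05 in limma's test, 0 of 34 against 0% of the 14415 genes with 4 values. At an unadjusted p under 0.05 there was 1 of 34, *Hoxc12*, against 0.909% of all genes tested. The median difference, reporter+ minus reporter-, was 0.03 over the *Hox* genes and -0.0035 over all genes tested, on the log2 scale. The standard error of a difference ranged from 0.20 to 1.54 over the members with a median of 0.37, so that a miss of the threshold does not show equal levels. This model held the population alone, so that differences between the library numbers counted as spread. With the library number as a block, the standard error ranged from 0.13 to 0.93 with a median of 0.26, and no *Hox* gene passed.

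Within the numbers, 8 of 34 *Hox* genes (23.5%) were higher in reporter+ in both number 2 and number 3, against 22.1% of all genes tested. Another 6 (17.6%) were lower in both, against 24.8% of all genes, and the remaining 20 went opposite ways. Any difference above or below 0 was counted, however small: the count of higher genes holds *Hoxa13*, at 0.0002 within number 2, and that of lower genes holds *Hoxa7*, at -0.0002 within number 3. With each library centered on its median the counts were 7 and 5. The share that was higher in both was close to the background. By cluster, genes higher and lower in both numbers were 4 and 3 of 11 in *Hoxa*, 1 and 1 of 8 in *Hoxb*, 0 and 2 of 9 in *Hoxc*, and 3 and 0 of 6 in *Hoxd*. The *Hoxd* genes were *Hoxd4*, *Hoxd8* and *Hoxd10*, and the *Hoxc* genes were *Hoxc12* and *Hoxc13*.

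**Figure D2:**
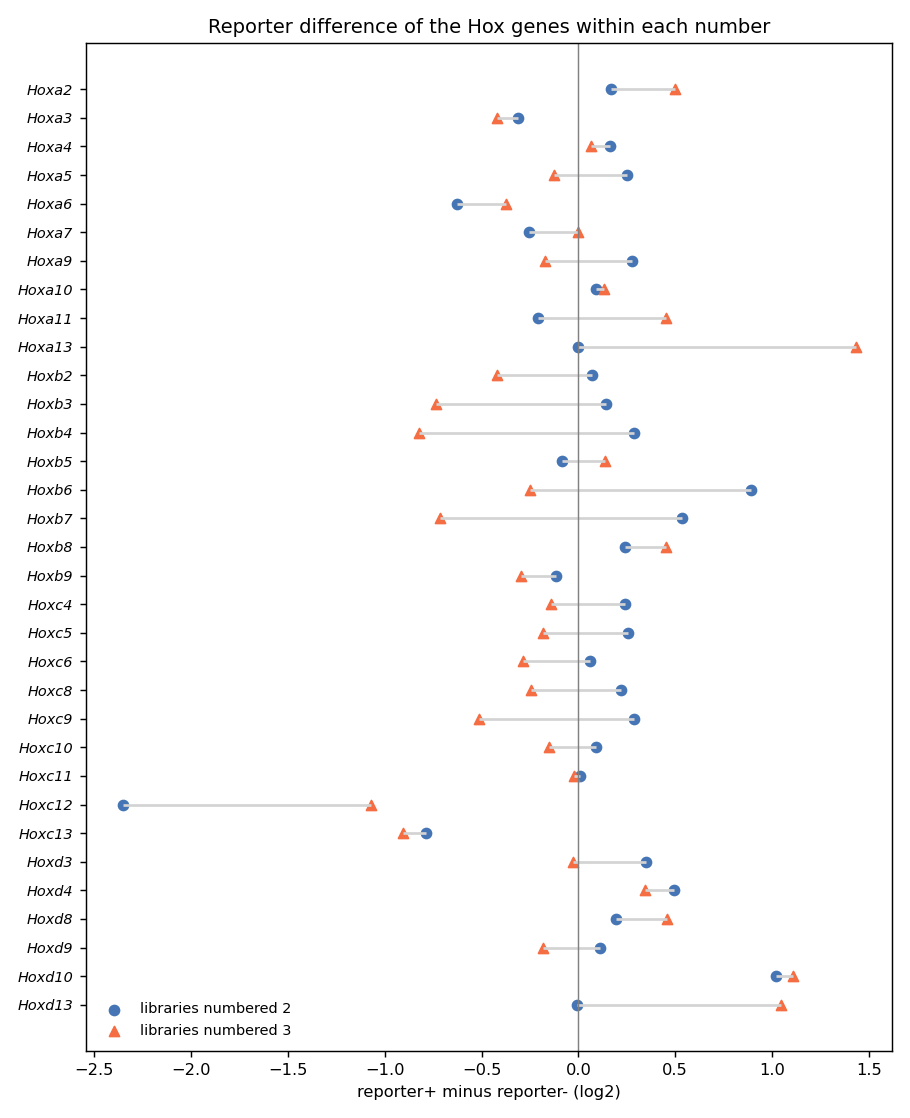
Reporter+ minus reporter- (horizontal axis, log2) for *Hox* genes with 4 values, within libraries numbered 2 (blue circles) and within libraries numbered 3 (orange triangles), with a grey line joining the pair. The symbols of *Hoxb4* and *Hoxb7* fall on opposite sides of 0, *Hoxc12* lies farthest left and *Hoxd10* has both symbols near 1.

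*Hoxc12* had the largest negative difference, -1.71 (SE 0.64, unadjusted p = 0.0495 and adjusted p = 1 in limma), made up of -2.35 within number 2 and -1.07 within number 3. Both reporter- libraries were above both reporter+ libraries. *Hoxc13* differed by -0.85 (SE 1.10), with -0.79 and -0.91 within the numbers, and its populations overlapped. *Hoxa6* stood at 0.54 and 0.63 in reporter+ and at 1.16 and 1.00 in reporter- libraries, a difference of -0.50 (SE 0.24) with no overlap. *Hoxa3* stood at -0.02 and 0.14 in reporter+ and at 0.29 and 0.56 in reporter- libraries, a difference of -0.36, again with no overlap; 25.4% of its exonic bases lie opposite antisense exons. *Hoxb3*, of which 52.9% lies opposite *Hoxb3os*, stood at -2.72 and -3.47 in reporter+ and at -2.86 and -2.74 in reporter- libraries, and its difference of -0.30 changed sign between the numbers.

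*Hoxd10* had the largest positive difference, 1.07 (SE 1.54), with 1.02 within number 2 and 1.11 within number 3. The level was thus 2.09-fold higher in reporter+ on average. Both *Hoxd10* and *Hoxc12* are low genes: with a pseudocount of 1 added on the linear scale, their reporter differences were 0.19 and -0.17. The populations of *Hoxd10* overlapped, since the libraries numbered 3 lay far above those numbered 2 in both. That gap is part of the SE of 1.54. With the library number as a block, the SE of *Hoxd10* was 0.44 (unadjusted p = 0.0393 and adjusted p = 0.730 in limma). *Hoxa13* differed by 0.72 (SE 1.21), with 0.0002 within number 2 and 1.43 within number 3. *Hoxd13* differed by 0.52 (SE 0.79), with 1.05 within number 3 and -0.01 within number 2. *Hoxd4* differed by 0.42 (SE 0.26), with 0.49 and 0.34 within the numbers and no overlap, and *Hoxb8* by 0.35 (SE 1.04), with 0.24 and 0.45. None of these passed the test (adjusted p = 1 in limma for each). In either direction, a lack of overlap is weak: with 2 libraries against 2, full separation gives p = 0.333 in an exact permutation test. Its share over all genes was not counted, and *Hoxa2*, *Hoxb9* and *Hoxd8* were also without overlap.

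The second comparison set the libraries numbered 3 against those numbered 2, in a limma model with the population and the number. The reporter test above left the number out, so that the counts of genes called in the 2 comparisons come from unlike models. In 24 of 34 *Hox* genes the reporter difference was smaller in size than the number difference, as it was in 75.7% of all genes tested. The median size of the number difference was 0.36 over the *Hox* genes and 0.31 over all genes, and that of the reporter difference was 0.14 and 0.12. At an adjusted p under 0.05, 5 of 34 *Hox* genes (14.7%) were higher in number 3, against 11.5% of all genes, and 2 of 34 (5.88%) were lower, against 9.79%. The *Hox* genes as a whole therefore stood near the background in this comparison, and the members called are described one by one. With no trend of the variance on the mean in limma, no gene of the table passed, and the smallest adjusted p was 0.0536.

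*Hoxd10* differed most, by 3.10 (SE 0.44, adjusted p = 0.00158 in limma), with 3.14 in reporter+ and 3.05 in reporter- cells, an 8.56-fold higher level in number 3. *Hoxa13* was 4.95-fold higher in number 3, by 2.31 (SE 0.43, adjusted p = 0.00601 in limma), with 3.02 in reporter+ and 1.59 in reporter- cells. *Hoxc13* was 4.45-fold higher, by 2.15 (SE 0.39, adjusted p = 0.00499 in limma), with 2.09 and 2.21 in the populations. *Hoxa11* was 2.14-fold higher, by 1.10 (SE 0.19, adjusted p = 0.00447 in limma), and *Hoxa10* 1.37-fold higher, by 0.45 (SE 0.13, adjusted p = 0.0373 in limma). The members called higher in number 3 all had paralog numbers of 10 or above. With a pseudocount of 1 added on the linear scale, which shrinks differences of low genes, the difference was 0.45 for *Hoxd10*, 0.42 for *Hoxc13*, 0.85 for *Hoxa11* and 0.58 for *Hoxa13*, and *Hoxa13* and *Hoxa10* no longer passed (adjusted p = 0.0663 and 0.0731 in limma). With blanks set to the lowest value of the table, *Hoxa11*, *Hoxa13* and *Hoxa10* missed the threshold (adjusted p = 0.0544, 0.0647 and 0.0840 in limma).

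*Hoxc10* fell by 0.58 in number 3 (SE 0.13, adjusted p = 0.0154 in limma) and *Hoxc6* fell by 0.52 (SE 0.16, adjusted p = 0.0483 in limma). With that pseudocount neither passed (adjusted p = 0.0540 and 0.106 in limma), nor with blanks set to the lowest value (adjusted p = 0.0671 and 0.113). *Hoxc5* stood at 1.96 and 1.22 in reporter+ and at 1.71 and 1.40 in reporter- libraries, a number difference of -0.52 that missed the threshold (adjusted p = 0.0735 in limma). *Hoxb8* differed by -1.84 (SE 0.59, adjusted p = 0.0570 in limma) and *Hoxb2* by -1.26 (SE 0.42, adjusted p = 0.0637 in limma), and both were lower in number 3 in both populations. *Hoxb2* stood at -1.82 and -3.32 in reporter+ and at -1.89 and -2.90 in reporter- libraries, and 27.3% of its exonic bases lie opposite *Hoxb3os*. *Hoxc11* differed by 0.62 (SE 0.23, adjusted p = 0.0912 in limma).

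**Figure D3:**
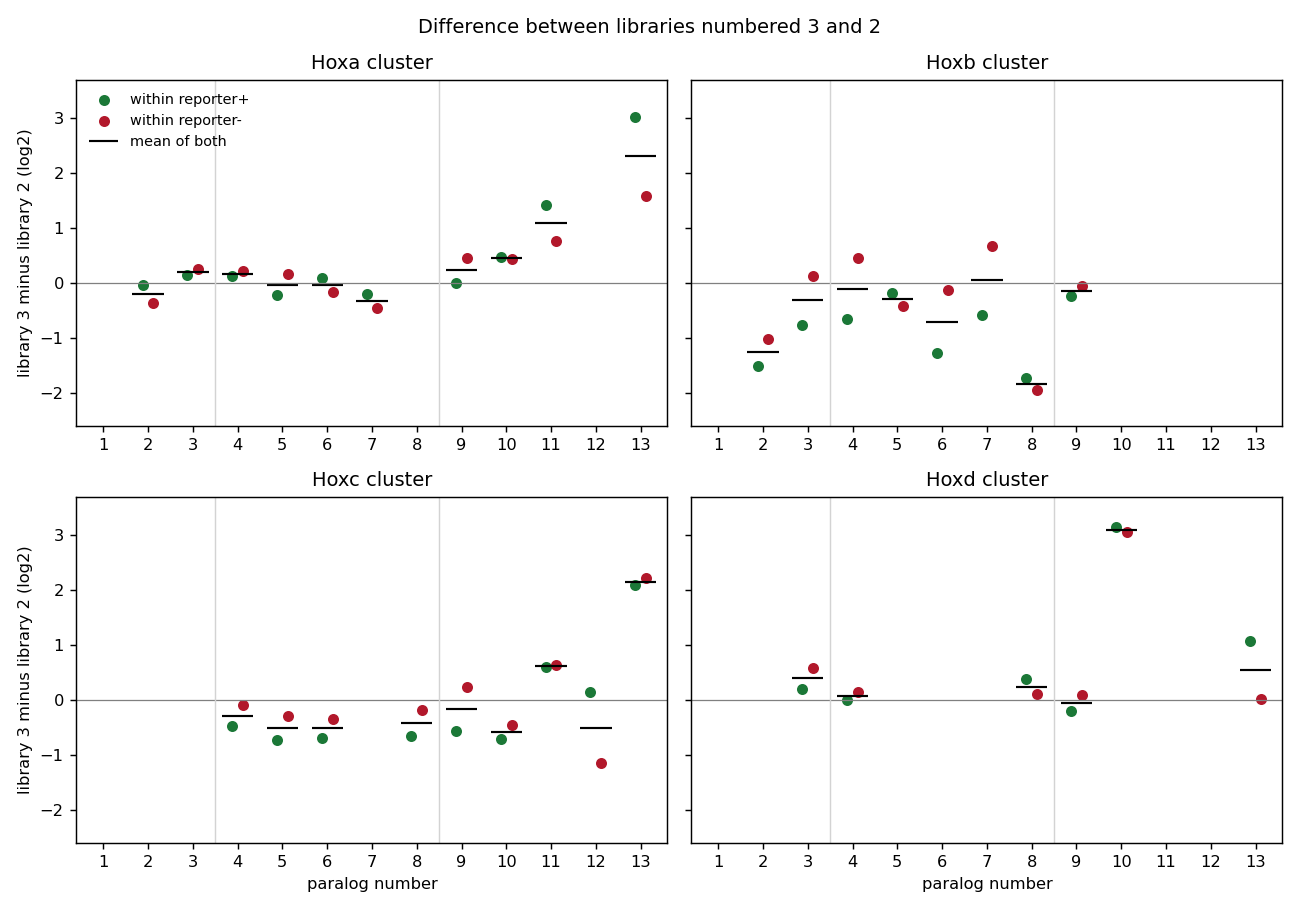
Library 3 minus library 2 (vertical axis, log2) for *Hox* genes with 4 values by paralog number (horizontal axis), 1 panel per cluster, within reporter+ (green) and within reporter- (red), with the mean of both as a bar. The points of *Hoxa* lie above 0 from paralog 9 on and reach 3.02 at *Hoxa13*, those of central *Hoxc* genes lie below 0, and *Hoxd10* is at 3.05 and 3.14.

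In both populations, 12 of 34 *Hox* genes (35.3%) were higher in number 3, against 41.1% of all genes tested, and 13 (38.2%) were lower, against 32.7%. Of the 13 posterior genes, 8 were higher and 2 lower in both populations, with a median difference of 0.45. Of the 15 central genes, 2 were higher and 8 lower, with a median of -0.29, and of the 6 anterior genes 2 were higher and 3 lower, with a median of -0.26. The median over all genes was 0.05. All 4 posterior *Hoxa* genes had a difference above 0 in both populations, though that of *Hoxa9* in reporter+ was only 0.0043, the 4 central *Hoxc* genes were lower in both, and of the 8 *Hoxb* genes 5 were lower and 0 higher. As a share of the summed linear *Hox* level, paralogs of number 11 held 5.19% and 12.8% in reporter+ libraries 2 and 3 and 6.18% and 9.84% in reporter- libraries 2 and 3. Paralogs of number 13 held 0.36% and 2.35% in reporter+ and 0.49% and 1.74% in reporter- libraries, while those of number 10 stayed between 26.5% and 27.97% in all 4. These splits by position were read after the values were seen and are a description, with no test.

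Other measures moved with the number, in which 11.5% of all genes tested were called higher and 9.79% lower. Chondrocyte markers were lower in number 3, with 3 of 4 tested genes called lower and none higher: *Col2a1*, the main collagen of cartilage, stood at 2.86 and -1.33 in reporter+ and at 3.32 and 1.23 in reporter- libraries, while *Comp* stood between 7.06 and 8.09 and was not called. Of 10 macrophage markers, 6 were called higher in number 3 and 0 lower. The log2 of their summed linear levels was 7.86 and 8.10 in reporter+ and 6.54 and 7.47 in reporter- libraries. Of 6 smooth muscle and pericyte markers, 3 were called higher and 0 lower. The log2 of their summed linear levels was 2.71 and 4.71 in reporter+ and 4.50 and 5.28 in reporter- libraries. Of the 12 periosteal and limb mesenchyme markers, 8 were lower and 3 higher in number 3 in both populations, and 4 were called lower (*Prrx1*, *Prrx2*, *Col1a2* and *Thy1*) and 2 higher (*Twist2* and *Postn*). *Postn*, a periosteal matrix gene, stood at -1.13 and 2.04 in reporter+ and at 0.14 and 3.04 in reporter- libraries. Of 5 osteoblast markers with 4 values, 2 were called higher (*Alpl* and *Dmp1*) and 0 lower, of 8 endothelial markers 1 was called higher (*Tek*) and 1 lower (*Erg*), and of 3 Schwann cell markers 1 was called lower (*S100b*). None of the 3 skeletal muscle and 5 proliferation markers with 4 values was called by number. By reporter, 22.1% of all genes tested were higher in reporter+ in both numbers and 24.8% were lower in both. Of the macrophage markers, 9 of 10 were higher in reporter+ in both numbers, and 5 of 6 smooth muscle markers were lower there in both. Endothelial markers were lower in reporter+ in both numbers in 6 of 8 genes. The log2 of their summed linear levels was 3.62 and 3.64 in reporter+ and 3.77 and 4.03 in reporter- libraries. Most of that sum came from *Eng*, at 3.41 and 3.47 in reporter+ and at 3.39 and 3.61 in reporter- libraries, so that it says little of the other endothelial markers. *Pecam1*, the gene of the CD31 used in the sort, stood at -4.68 and -4.79 in reporter+ and at -1.99 and -1.11 in reporter- libraries. Of the skeletal muscle markers, 3 of 3 with 4 values were lower in reporter+ in both numbers, with a median difference of -2.01; *Myf5* and *Pax7* were blank. No marker was called by reporter, but with the library number as a block the macrophage gene *Tyrobp* was (higher by 1.00, adjusted p = 0.0437 in limma). That model called no gene of the table with no variance trend, with a pseudocount of 1 or with blanks set to the lowest value. The part of these cells in the *Hox* values was not tested, and in bulk libraries fewer cells of a type cannot be told apart from less RNA per cell.

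The partners and regulators of *Hox* genes were read from lists. All 9 TALE homeodomain cofactors, which bind DNA together with Hox proteins, had 4 values, and 7 had a mean of at least 0. *Meis1* stood at 2.85 and 2.76 in reporter+ and at 2.86 and 3.02 in reporter- libraries, with reporter+ minus reporter- at -0.01 within number 2 and -0.26 within number 3. *Pknox2* alone of the list was called by number, at -1.72 and 0.66 in reporter+ and at -2.06 and 0.99 in reporter- libraries, a difference of 2.72 (SE 0.29, adjusted p = 0.000383 in limma).

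Retinoic acid switches on *Hox* genes in the embryo. Of the 9 tested genes of retinoid synthesis, breakdown and reception, 4 were called higher and 2 lower in number 3, where 11.5% and 9.79% of all genes tested were called higher and lower. *Aldh1a2*, which makes retinoic acid, stood at 0.89 and 4.99 in reporter+ and at 2.57 and 4.50 in reporter- libraries, a difference of 3.02 (SE 0.38, adjusted p = 0.000913 in limma). *Rarb*, a retinoic acid receptor whose gene is itself a retinoid target, stood at -2.10 and 1.06 in reporter+ and at -1.29 and 0.36 in reporter- libraries, a difference of 2.40 (adjusted p = 0.00233 in limma). *Rxrg* and *Cyp26b1*, which breaks retinoic acid down, were higher by 2.63 and 1.30, and *Aldh1a1* and *Rarg* fell by 1.59 and 0.68. *Cdx2* and *Cdx4*, activators of *Hox* clusters in the embryo, were blank in all libraries. The related gene *Cdx1* had a value in reporter- library 3 alone, at -6.23.

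The Polycomb complexes keep silent *Hox* genes closed, and the MLL complexes oppose them. All 11 PRC2 genes, 18 PRC1 genes and 12 genes of MLL complexes and H3K27 demethylases had 4 values. By number, 1 PRC2 gene (*Mtf2*) was called higher, 4 PRC1 genes higher and 1 lower, and 1 MLL gene (*Wdr5*) higher, again against 11.5% higher and 9.79% lower of all genes tested. By reporter, none of these lists nor the TALE and retinoid lists had a call. *Pitx1*, a hindlimb factor upstream of *Tbx4*, stood at 0.50 and 1.28 in reporter+ and at -0.46 and 0.28 in reporter- libraries; it was higher in reporter+ by 0.96 and 1.00 within the numbers (adjusted p = 1 in limma) and higher in number 3 by 0.76 (SE 0.22, adjusted p = 0.0366 in limma). Of 10 genes in the table from the list of cluster neighbours, 8 had 4 values, and *Skap2*, beside the *Hoxa* cluster, was called lower in number 3, by -0.46. *Evx2*, the homeobox gene beyond *Hoxd13*, was near the floor, at -7.87 and -7.89 in reporter+ and at -6.91 in both reporter- libraries.

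The promoters of 4 members that stood apart by number are shown, from 3 of the clusters. Of these members *Hoxb8* missed the threshold by number, and the called members *Hoxa10*, *Hoxc6*, *Hoxc10* and *Hoxc13* are not shown. Each promoter is given as the 250 bases before the RefSeq start of the gene, from RefSeq on GRCm38.p6. Capitals mark CG dinucleotides, the sites of DNA methylation. *Hoxa11* lies at chr6:52242106-52245810 on the minus strand, *Hoxa13* at chr6:52257694-52260880 on the minus strand, *Hoxd10* at chr2:74691924-74695105 and *Hoxb8* at chr11:96281905-96285315, both on the plus strand (GENCODE, GRCm38). The windows are chr6:52245811-52246060, chr6:52260881-52261130, chr2:74691641-74691890 and chr11:96281655-96281904, each read 5′ to 3′ on the strand of the gene. The starts are those of RefSeq, and for *Hoxd10* the start in GENCODE lies further downstream, so that its window does not reach it.
Hoxa11: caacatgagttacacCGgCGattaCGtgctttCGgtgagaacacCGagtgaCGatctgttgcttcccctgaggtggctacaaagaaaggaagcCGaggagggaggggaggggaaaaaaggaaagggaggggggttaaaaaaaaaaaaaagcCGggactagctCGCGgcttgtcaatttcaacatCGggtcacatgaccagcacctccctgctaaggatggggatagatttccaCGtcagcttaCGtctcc
Hoxa13: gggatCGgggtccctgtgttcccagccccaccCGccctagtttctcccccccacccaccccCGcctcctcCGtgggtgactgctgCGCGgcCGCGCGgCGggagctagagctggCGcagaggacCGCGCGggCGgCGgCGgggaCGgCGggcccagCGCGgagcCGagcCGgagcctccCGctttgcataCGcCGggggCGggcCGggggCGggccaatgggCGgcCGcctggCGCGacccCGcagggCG
Hoxd10: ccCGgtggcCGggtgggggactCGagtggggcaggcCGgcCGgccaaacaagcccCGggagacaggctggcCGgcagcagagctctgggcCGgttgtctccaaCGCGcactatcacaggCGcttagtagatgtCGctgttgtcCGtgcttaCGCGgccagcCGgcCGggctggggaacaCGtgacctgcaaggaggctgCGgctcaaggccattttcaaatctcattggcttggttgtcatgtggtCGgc
Hoxb8: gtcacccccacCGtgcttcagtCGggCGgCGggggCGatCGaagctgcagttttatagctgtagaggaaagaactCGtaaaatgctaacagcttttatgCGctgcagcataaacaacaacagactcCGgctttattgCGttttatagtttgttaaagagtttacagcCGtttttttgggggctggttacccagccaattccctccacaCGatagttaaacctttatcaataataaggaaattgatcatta

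These windows hold 13, 35, 20 and 12 CG dinucleotides, against a median of 12.5 over the 24 windows found for 22 of the 39 *Hox* genes and of 6 over all 32851 windows. The letters TATAAA, searched on both strands, were found in the window of *Hoxb8* and not in the other 3, and in 4 of 24 *Hox* windows against 12.4% of all windows. CCAAT was found in 14 of 24 against 33.9%, and TAAT, the core that many homeodomains bind, in 18 of 24 against 54.9%. A match is a run of letters and no measured site.

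The clusters also hold genes of microRNAs that pair with *Hox* transcripts. They have no values here: 14 of 15 listed noncoding genes of the clusters were in the table and all were blank, as were all 1188 microRNA symbols, and 34 of 2402 lincRNA symbols had a value. The mature sequences from RefSeq show 2 seeds (bases 2 to 8, in capitals).
miR-10a-5p: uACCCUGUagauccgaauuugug
miR-10b-5p: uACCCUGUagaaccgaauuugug
miR-196a-5p: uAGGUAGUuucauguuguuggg
miR-196b-5p: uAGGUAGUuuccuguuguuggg

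The match to the miR-196 seed, ACTACCT, was present in the 3′ UTR of 9 of 39 *Hox* genes against 6.80% of 21166 genes with a 3′ UTR in GENCODE, and that to the miR-10 seed, ACAGGGT, in 4 of 39 against 12.9%. Those with the miR-196 match included *Hoxa4*, *Hoxa5*, *Hoxa7*, *Hoxa9*, *Hoxb1*, *Hoxb6*, *Hoxb7* and *Hoxc8*, of which *Hoxb1* was not tested and none of the others was called by reporter or by number. One such site is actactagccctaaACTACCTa (match in capitals) in the 3′ UTR of *Hoxa7* at chr6:52214491-52221854 on the minus strand, a gene which stood at 0.67 and 0.48 in reporter+ and at 0.92 and 0.48 in reporter- libraries.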

How the data were processed

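RNA of 4 libraries was measured, 2 of PDGFRα reporter+ and 2 of PDGFRα reporter- cells. The authors deposited 1 quantile-normalized log2 value per symbol and library; per the labels, reads were handled with bcl2fastq 2.17.1.14, Partek 7.0 and build GRCm38.p6. The aligner, the counting, the annotation, the filters and the linear unit are not given in the sources used here, so depth and counting error are unknown. Columns were assigned to populations only, since their numbers (2 and 3) are not those of the labels. That the libraries came from separate preparations is not stated, so p-values measure only the spread between these libraries.

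Each gene was fitted in R 4.3.3 with limma 3.58.1 (variance trend, two-sided, Benjamini-Hochberg adjustment over 14415 genes with 4 values, threshold 0.05): population alone, and number 3 against 2 in a model with population. The model was also run on simulated data, and the outcome is not given here. Summaries used Python 3.11.15, pandas 2.3.3, numpy 2.4.6 and matplotlib 3.10.9. Positions, lengths and UTRs came from GENCODE, and promoters and microRNAs from RefSeq. Linear levels are 2 to the power of the deposited value.

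The *Hox* genes and the lists were chosen with earlier results of these data known. Some genes are not reported here by name or drawn, though counts over all members include them. Values per library are given for paralog numbers 9 to 13, the 3 highest means of a cluster, the 5 largest reporter differences each way, genes with some blanks, and genes called; further genes were named after their values were seen. Alternatives were the library number as a block, no variance trend, a pseudocount of 1, other treatments of blanks and low values, median centering, and leaving out each library.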

Additional observations from a re-analysis of the deposited data

Results flagged for a closer look

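In 3 *Hox* genes the reporter difference took opposite signs within the library numbers, with a size of at least 0.25 on the log2 scale in each; the difference between the numbers was not tested. *Hoxb4* was higher in reporter+ within number 2 (0.29) and lower within number 3 (-0.82). *Hoxb7* was higher within number 2 (0.53) and lower within number 3 (-0.71). *Hoxc9* was higher within number 2 (0.29) and lower within number 3 (-0.51). Each value rests on 1 library against 1.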

How the results depend on the processing

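The reporter comparison called no *Hox* gene under any alternative. With the library number as a replicate block, limma called 29 genes of the table but no *Hox* gene (smallest adjusted p 0.426). In that model 3 of 34 *Hox* genes had an unadjusted p under 0.05 in place of 1, as 913 of all 14415 genes did in place of 131. The 3 were *Hoxc12*, *Hoxa6* and *Hoxd10* (unadjusted p = 0.0118, 0.0352 and 0.0393 in limma). The blocked model called 0 genes with no trend, with a pseudocount of 1 and with blanks set (smallest adjusted p 0.463, 0.425 and 0.645), 12 with a mean of at least 0, 60 with median centering and 32 with a value in at least 3 libraries, and no *Hox* gene in any of these. Without the block, the count of *Hox* genes at an unadjusted p under 0.05 was 0 with a pseudocount of 1, with blanks set to the lowest value, with a mean of at least 0 and with median centering, and 0 to 1 on leaving out a library. Whether the numbers pair the libraries is not stated; deviations from the population means had a correlation of 0.68 between libraries of the same number, across genes. Leaving out 1 library gave a median *Hox* reporter difference of -0.16 to 0.07, and unbalances the numbers: the range was -0.50 to 2.64 for *Hoxd10*, -0.80 to 2.23 for *Hoxa13*, -0.0187 to 1.06 for *Hoxd13*, -0.62 to 1.32 for *Hoxb8*, -1.95 to 0.26 for *Hoxc13* and -0.67 to 0.0823 for *Hoxb3*. With a mean of at least 0, which leaves 16 *Hox* genes, 3 were higher and 3 lower in both numbers. The number comparison called 3065 genes, and 0 with no trend, 1825 with a pseudocount of 1 and 1256 with blanks set to the lowest value; it called 7 *Hox* genes, and 0 with no trend, 3 with a pseudocount, 3 with blanks set and 4 of 16 with a mean of at least 0, where 2232 of 10224 genes were called. With blanks set, 2 of the 3 were among the 7 (*Hoxd10* and *Hoxc13*), and the other was *Hoxd11*, whose values of number 2 are then filled in. The median *Hox* number difference, -0.08, ranged from -0.13 to 0.10 on leaving out a library, where no test by number was possible because no residual degrees of freedom were left. The 11 *Hox* genes with an unadjusted p under 0.05 by number kept the sign of that difference in the 105 values computed for them. That sign was largely fixed beforehand, as some settings leave the difference unchanged. Leaving out a library returns the difference within 1 population, and for these genes both populations already shared a sign. The other *Hox* genes were not recomputed gene by gene. Where a count or sign changed, the cause was not tested.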
